A study of Mus musculus with 10 samples.

Results

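The outer kinetochore genes examined here were the 4 subunits of the NDC80 complex (*Ndc80*, *Nuf2*, *Spc24* and *Spc25*), 3 subunits of the MIS12 complex (*Mis12*, *Dsn1* and *Nsl1*) and the 3 subunits of the SKA complex (*Ska1*, *Ska2* and *Ska3*). They were taken as a list of names and mapped by symbol, which gave 10 genes of the 45232 gene entries in the expression matrix, each with 1 entry. RNA came from NIH3T3 cells, an immortalized mouse fibroblast line, of 2 *Lin37* knockout lines made with a CRISPR/Cas9 nickase and carrying InDels at the boundary of exon 4 or of exon 6. Both lines grew from a single cell, so each stands for 1 clone. Every library came from knockout cells that also held a hygromycin-selected, doxycycline-inducible episome, a plasmid kept outside the chromosomes, which expressed luciferase (KO) or wild-type Lin37 (rescue) together with GFP. All cells were starved for 60 h in 0% serum after growth in 10% serum, to arrest them in G0, the resting state. By flow cytometry the authors found slightly more cells in S phase or in G2 and mitosis among starved cells without functional Lin37. The exon 4 clone had 2 KO and 2 rescue libraries and the exon 6 clone 3 of each, and library 3 of the exon 6 clone was a technical replicate of its replicate 2 and was averaged with it. This left 4 KO and 4 rescue replicates, which the labels call biological without saying how the cultures were separated, so that the *p*-values measure the spread between these samples.

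The kinetochore is the protein assembly on the centromere that ties each chromosome to the microtubules of the mitotic spindle. In its outer layer the NDC80 complex binds the microtubule directly, the MIS12 complex links it to the inner kinetochore, and the SKA complex loads onto NDC80 and strengthens its hold on the microtubule end. Genes of these proteins are known to be expressed mostly in G2 and mitosis. Lin37 is a subunit of MuvB, the core of the DREAM complex, which represses cell cycle genes in resting cells. MuvB reaches promoters at CHR elements, and the E2F subunits of DREAM reach them at E2F sites. CCAAT boxes, bound by NF-Y, are common in promoters of genes that peak in G2 and mitosis.

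The promoters of the members are shown first, because the genes in question differ in which of these motifs lie near their starts. RefSeq windows of 250 bases before to 50 after the gene start (GRCm38.p6, the build mm10) were found for 7 of the 10 members, *Ndc80*, *Nuf2*, *Spc25*, *Mis12*, *Dsn1*, *Ska2* and *Ska3*, and positions below count from +1 at that start. The letters searched on both strands were TTTGAA and TTCGAA for the CHR, GCGG 4 bases before TTTGAA for a CHR with a CDE, TTTGGCGC, TTTCCCGC, TTTGCCGC and TTTCGCGC for E2F, and CCAAT. A CHR lay in 3 of the 7 windows, against 19.1% of the 32544 distinct windows of all genes, an E2F match in 1 against 2.28%, and a CCAAT box in 3 against 37.4%. No member window held the CDE with CHR, which 0.0707% of all windows held and which overlaps the CHR by definition. *Nuf2* had no match to any of these letters. The stretches printed below hold the matches nearest the starts, in capitals, for *Ndc80* (chr17:71526823-71526852, minus strand, +6 to +35), *Spc25* (chr2:69206184-69206333, minus strand), *Ska3* (chr14:57826134-57826283, minus strand), *Dsn1* (chr2:157007256-157007295, minus strand, -220 to -181), *Mis12* (chr11:71019491-71019640, plus strand) and *Ska2* (chr11:87109141-87109290, plus strand), and for *Prr11* (chr11:87108685-87108834, minus strand), the gene that starts beside *Ska2* on the other strand; where no positions are given they run from -120 to +30.
Ndc80: tcagcgcgggcggaaactttaaaaTTCAAA
Spc25: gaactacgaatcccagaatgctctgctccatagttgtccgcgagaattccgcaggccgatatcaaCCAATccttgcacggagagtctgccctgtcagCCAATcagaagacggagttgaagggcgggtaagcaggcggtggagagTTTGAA
Ska3: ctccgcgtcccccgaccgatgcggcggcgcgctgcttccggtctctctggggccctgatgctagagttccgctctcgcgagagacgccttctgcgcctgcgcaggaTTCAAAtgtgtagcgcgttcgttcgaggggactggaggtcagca
Dsn1: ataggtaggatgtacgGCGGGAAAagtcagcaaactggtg
Mis12: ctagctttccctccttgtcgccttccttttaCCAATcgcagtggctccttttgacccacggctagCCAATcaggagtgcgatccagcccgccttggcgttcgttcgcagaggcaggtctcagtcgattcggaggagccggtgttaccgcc
Ska2: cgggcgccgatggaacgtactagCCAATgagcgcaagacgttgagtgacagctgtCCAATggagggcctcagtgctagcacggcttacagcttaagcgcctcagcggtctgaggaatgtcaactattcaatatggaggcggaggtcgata
Prr11: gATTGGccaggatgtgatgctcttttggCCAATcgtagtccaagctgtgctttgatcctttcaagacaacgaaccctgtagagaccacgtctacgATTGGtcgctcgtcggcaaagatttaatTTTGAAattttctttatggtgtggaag

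The capitals mark a CHR at +30 to +35 in *Ndc80* and at -14 to -9 in *Ska3*, both read on the other strand, and at +25 to +30 in *Spc25* and +4 to +9 in *Prr11*, on the strand of the gene. In *Dsn1* they mark an E2F match at -204 to -197 on the other strand. *Spc25* also had 2 CCAAT boxes, *Mis12* 4 and *Ska2* 5 in the whole window, all on the strand of the gene, and *Mis12* and *Ska2* had neither a CHR nor an E2F match. Of the other divergent neighbours described below, *Mrpl57* had a CHR at -67 to -62 and *Derl2* 1 at -245 to -240 in 1 of its 2 windows. The CHR of *Mrpl57* is not a separate match, since it covers the same bases as that of *Ska3*, counted from the other start. A match is a description of the letters, and none of them was tested as a binding site.

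**Figure D1:**
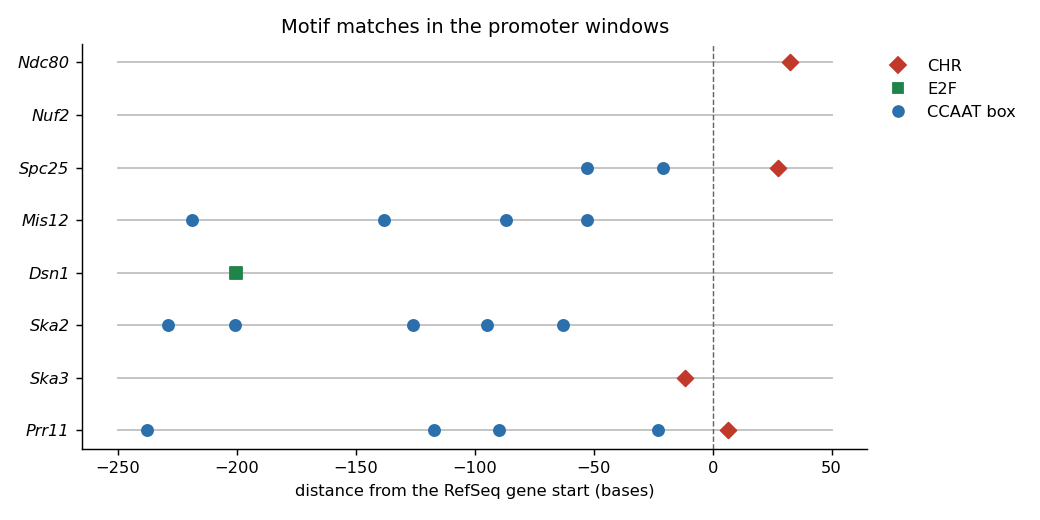
Motif matches in the promoter windows of the 7 members with a RefSeq window and of *Prr11*, by distance in bases from the gene start (dashed line at 0), with 1 grey line per gene. CHR matches (diamonds) lie from -14 to +35 in *Ndc80*, *Spc25*, *Ska3* and *Prr11*, while *Mis12* and *Ska2* show CCAAT boxes (circles) only.

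The values are RPKM, reads scaled to the length of the gene and the size of the library, deposited by the authors and rescaled here so that the median ratio of 8523 expressed genes was equal between libraries. The factors ran from 0.324 to 2.70, and without them the median gene was 0.64 higher in KO on the log2 scale over both clones. The estimated depth was 21900000 to 91200000 reads per library. By this estimate a member value stood for 25.9 to 791 reads in KO libraries (median 158) and for 0 to 216 in rescue libraries (median 11.3), so the low rescue values are the less certain ones. The 8 fibroblast markers summed to 447 to 782 RPKM in KO and 519 to 900 RPKM in rescue libraries. The epithelial, endothelial and muscle markers summed to at most 0.491 RPKM each, and the leukocyte markers to at most 1.45 RPKM. *Lin37* itself (chromosome 7, 30555441 to 30559838) was at 0.315 ± 0.0681 RPKM in KO and 3.58 ± 1.46 RPKM in rescue replicates (SD, n = 4 each), a value that in rescue cells includes the episome's transcript. The rescue replicates differed by clone, with 2.54 and 2.12 RPKM in the exon 4 clone and 4.92 and 4.76 RPKM in the exon 6 clone. Whether this bears on the size of the members' changes in each clone was not tested.

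Loss of Lin37 went with higher RNA of most outer kinetochore genes in the starved cells. Over both clones, 8 of the 10 members rose in KO against rescue and none fell, where 1.61% of the 16866 genes tested were called higher. All 4 NDC80 genes and all 3 MIS12 genes rose, and of the SKA genes only *Ska3* passed the test. For 9 of the 10 members every KO replicate lay above every rescue replicate, which held for 3.11% of all genes tested, and *Ska2* was the exception. A gene was called at an adjusted *p* under 0.05 in limma with Benjamini-Hochberg adjustment over all genes tested. Genes were tested at a mean of at least 0.1 RPKM. *Nuf2*, *Spc24*, *Nsl1*, *Ska1* and *Ska3* had rescue means under 0.1 RPKM and reached that minimum only through their KO values. With no minimum, 4 members were called, where 171 of 40885 genes tested were called higher. Fold changes are given as the log2 change, KO minus rescue, on log2(RPKM + 0.5), which understates the change of genes as low as these. The median log2 change was 0.92 over the members and -0.03 over all genes tested. In bulk RNA, more cells in the cycle and more RNA per cell cannot be told apart.

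**Figure D2:**
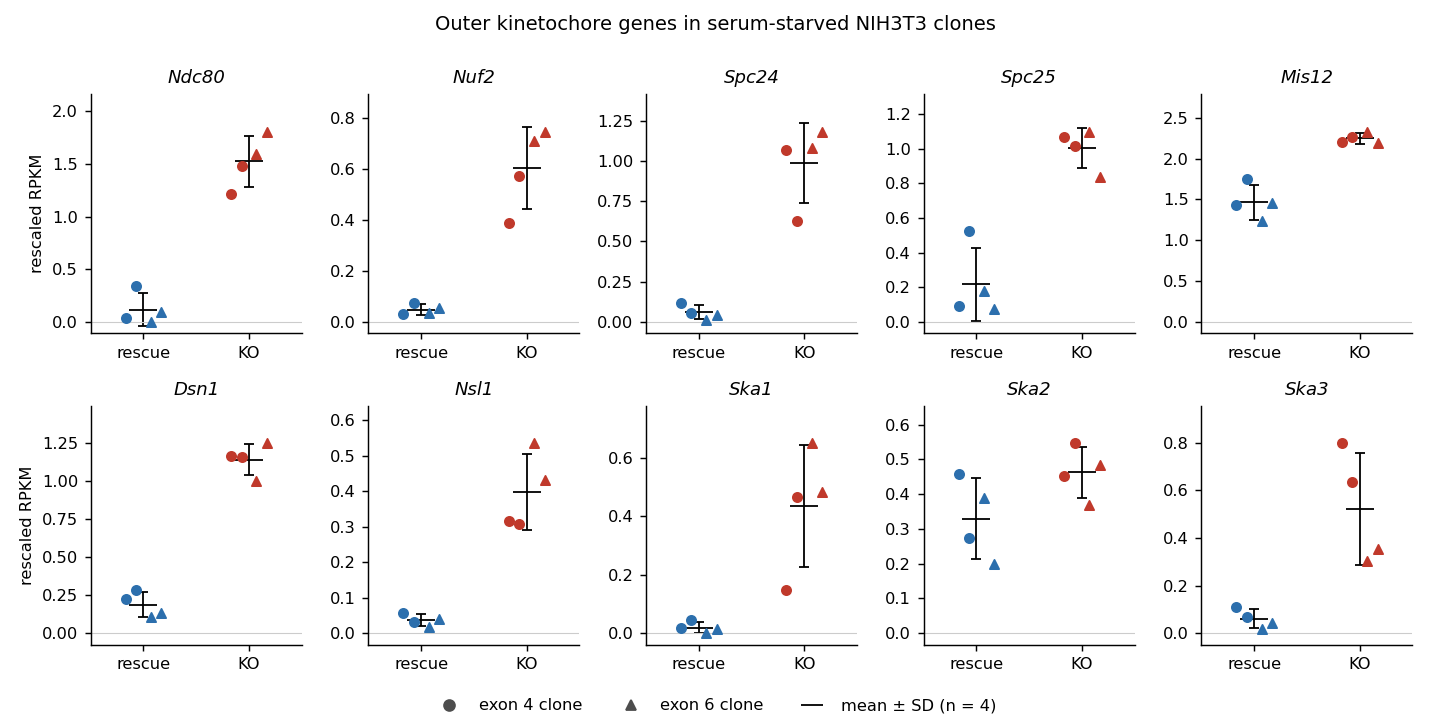
Rescaled RPKM of the 10 members in the 4 rescue (blue) and 4 KO (red) replicates, circles for the exon 4 clone and triangles for the exon 6 clone, with the mean and SD in black and an axis of its own for each gene. The KO replicates lie above all rescue replicates in 9 panels, and they overlap for *Ska2*.

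*Ndc80*, the subunit whose head domain contacts the microtubule (chromosome 17, 71496100 to 71526857, minus strand), measured 1.22 and 1.48 RPKM in the KO libraries of the exon 4 clone and 0.0371 and 0.340 RPKM in its rescue libraries. *Ndc80* in the exon 6 clone measured 1.60, 1.89 and 1.71 RPKM in KO libraries and was listed at 0 and measured 0.113 and 0.0746 RPKM in rescue libraries. It was low in all 5 rescue libraries, least so in replicate 2 of the exon 4 clone. The log2 change over both clones was 1.73 (SE 0.18, adjusted *p* = 0.00125), the highest of the members. Of the 31-base stretches of its transcripts, 10.6% also occur in transcripts of other genes, 219 of them in the pseudogene *2700099C18Rik*, which itself measured 0.471 to 0.820 RPKM in KO and 0.0325 to 0.138 RPKM in rescue replicates, so reads may have been split between these genes.

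*Nuf2*, the partner that forms the microtubule-binding end together with Ndc80 (chromosome 1, 169497934 to 169531464, minus strand), measured 0.387 and 0.574 RPKM in KO and 0.0303 and 0.0738 RPKM in rescue libraries of the exon 4 clone. *Nuf2* in the exon 6 clone measured 0.709, 0.681 and 0.807 RPKM in KO and 0.0343, 0.0184 and 0.0911 RPKM in rescue libraries. The groups did not overlap in either clone, and the KO mean was 12.5 times the rescue mean. The log2 change was 1.00 (SE 0.12, adjusted *p* = 0.0028).

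*Spc24*, which with Spc25 forms the end of the complex that docks on the MIS12 complex (chromosome 9, 21755442 to 21760303, minus strand), measured 1.07 and 0.626 RPKM in KO and 0.119 and 0.0568 RPKM in rescue libraries of the exon 4 clone. *Spc24* in the exon 6 clone measured 1.08, 1.32 and 1.03 RPKM in KO libraries, against 0.0145, a listed 0 and 0.0919 RPKM in rescue libraries. The highest rescue library thus stayed far under the lowest KO library. Its log2 change was 1.40 (SE 0.14, adjusted *p* = 0.00127).

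*Spc25* (chromosome 2, 69193895 to 69206194, minus strand) measured 1.07 and 1.02 RPKM in KO and 0.0909 and 0.523 RPKM in rescue libraries of the exon 4 clone. *Spc25* in the exon 6 clone measured 1.09, 0.768 and 0.908 RPKM in KO and 0.176, 0.0557 and 0.0965 RPKM in rescue libraries. Rescue replicate 2 of the exon 4 clone was again the highest of its group, as it was for *Ndc80*. The log2 change was 1.11 (SE 0.17, adjusted *p* = 0.0131), and the KO mean was 4.63 times the rescue mean. Leaving out any 1 replicate of the exon 6 clone ended the call (adjusted *p* = 0.0526 to 0.0739).

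Among the MIS12 genes, *Dsn1* (chromosome 2, 156995265 to 157007154, minus strand) measured 1.16 and 1.15 RPKM in KO and 0.224 and 0.285 RPKM in rescue libraries of the exon 4 clone. *Dsn1* in the exon 6 clone measured 0.995, 1.41 and 1.08 RPKM in KO and 0.108, 0.0952 and 0.172 RPKM in rescue libraries. Its KO replicates were among the tightest of the set, at 1.14 ± 0.104 RPKM, and its rescue replicates were at 0.188 ± 0.0817 RPKM (SD, n = 4 each). The log2 change of 1.26 (SE 0.10) had the lowest adjusted *p* of the members, 0.000373.

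*Nsl1* (chromosome 1, 191063012 to 191086474, plus strand) measured 0.316 and 0.307 RPKM in KO and 0.0568 and 0.0308 RPKM in rescue libraries of the exon 4 clone. *Nsl1* in the exon 6 clone measured 0.534, 0.401 and 0.459 RPKM in KO and 0.0169, 0.000866 and 0.0803 RPKM in rescue libraries. It was the lowest member in KO cells, with a log2 change of 0.73 (SE 0.11, adjusted *p* = 0.0108) and a KO mean 10.9 times the rescue mean. Its call, too, was lost without any 1 replicate of the exon 6 clone (adjusted *p* = 0.0542 to 0.0748).

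*Mis12*, the subunit that names the complex (chromosome 11, 71019611 to 71027371, plus strand), measured 2.21 and 2.27 RPKM in KO and 1.43 and 1.75 RPKM in rescue libraries of the exon 4 clone. *Mis12* in the exon 6 clone measured 2.32, 2.12 and 2.25 RPKM in KO and 1.23, 1.43 and 1.48 RPKM in rescue libraries. It was the highest member in both groups, and unlike the others it stayed well above 1 RPKM in rescue cells. The KO mean was 1.53 times the rescue mean, with a log2 change of 0.49 (SE 0.10) and an adjusted *p* of 0.049. A fit blocked by replicate gave an adjusted *p* of 0.0738, and the call was lost. Only 5 of its 19 alternative fits over both clones called it, and it was lost on leaving out any replicate other than rescue replicate 2 of the exon 4 clone. Its start overlaps *Derl2* on the other strand by 231 bases, and whether strand was used in counting is not given in the sources used here.

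Of the SKA genes, *Ska3* (chromosome 14, 57806561 to 57826185, minus strand), the subunit that contacts the NDC80 complex, measured 0.798 and 0.637 RPKM in KO and 0.111 and 0.0690 RPKM in rescue libraries of the exon 4 clone. *Ska3* in the exon 6 clone measured 0.302, 0.541 and 0.162 RPKM in KO and 0.0160, 0.0318 and 0.0549 RPKM in rescue libraries. Libraries 2 and 3 of the exon 6 KO cells, which are technical replicates, differed by a larger ratio for *Ska3* than for any other member. The log2 change was 0.84 (SE 0.12, adjusted *p* = 0.00781).

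*Ska1*, the subunit with the microtubule-binding domain (on chromosome 18), measured 0.147 and 0.464 RPKM in KO and 0.0162 and 0.0444 RPKM in rescue libraries of the exon 4 clone. *Ska1* in the exon 6 clone measured 0.648, 0.408 and 0.556 RPKM in KO libraries and a listed 0, 0.0271 and 7.7e-05 RPKM in rescue libraries. The groups did not overlap, but the KO replicates were widely spread, at 0.435 ± 0.209 RPKM (SD, n = 4). The log2 change of 0.82 (SE 0.16) did not pass the test, with an adjusted *p* of 0.0507. Without KO replicate 1 of the exon 4 clone, the lowest KO library, it was 0.99. Only 6 of the 18 alternative fits over both clones called *Ska1*, with log2 changes from 0.48 to 2.08.

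*Ska2*, a small subunit of the core of the complex (chromosome 11, 87109234 to 87124635, plus strand), measured 0.452 and 0.546 RPKM in KO and 0.458 and 0.273 RPKM in rescue libraries of the exon 4 clone. *Ska2* in the exon 6 clone measured 0.370, 0.529 and 0.438 RPKM in KO and 0.389, 0.210 and 0.190 RPKM in rescue libraries. KO and rescue libraries overlapped in both clones. The means were 0.463 ± 0.0735 RPKM in KO and 0.330 ± 0.116 RPKM in rescue (SD, n = 4 each), and the log2 change was 0.22 (SE 0.12, adjusted *p* = 0.677). None of the 18 alternatives called it, with log2 changes from 0.14 to 0.68. The value of *Ska2* is uncertain in another way, since 16.3% of its 31-base stretches occur in other transcripts. Of these, 275 lie in the antisense gene *Gm11491*, which overlaps it by 3069 bases and measured at most 0.280 RPKM, and 172 in the pseudogene *Ska2l-ps*, which measured 0.885 to 2.19 RPKM in KO and 0.607 to 1.70 RPKM in rescue replicates.

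**Figure D3:**
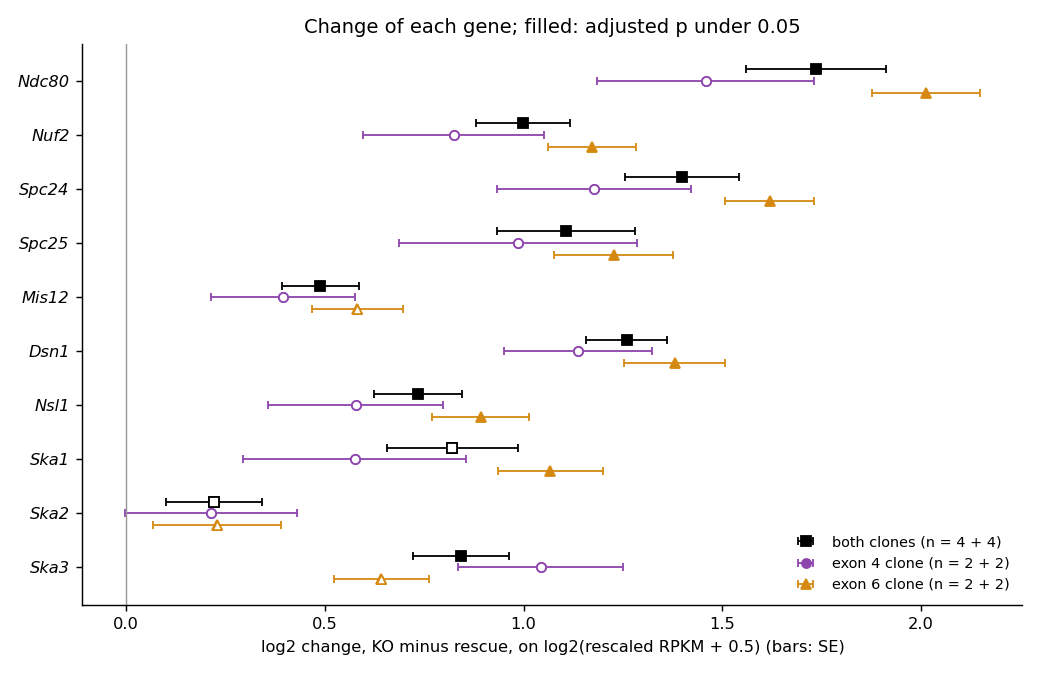
Log2 change, KO minus rescue, on log2(rescaled RPKM + 0.5) with its SE for each member, over both clones (black squares), in the exon 4 clone (purple circles) and in the exon 6 clone (orange triangles), with filled points for an adjusted *p* under 0.05. Every point lies above 0, from 0.21 for *Ska2* in the exon 4 clone to 2.01 for *Ndc80* in the exon 6 clone, and all points of the exon 4 clone are open.

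In the exon 6 clone alone, with 2 replicates of each group, 7 of the 10 members were called higher, against 1.24% of the 15301 genes tested there. These were the 4 NDC80 genes, *Dsn1*, *Nsl1* and *Ska1*. The log2 changes of the called members ran from 0.89 for *Nsl1* to 2.01 for *Ndc80*. *Mis12* (0.58, adjusted *p* = 0.130), *Ska3* (0.64, adjusted *p* = 0.110) and *Ska2* (0.23, adjusted *p* = 0.661) were not called. With the replicate block the count was 5, because *Nsl1* (adjusted *p* = 0.0913) and *Ska1* (adjusted *p* = 0.066) were lost. Without library 3, the technical replicate, only *Ndc80* and *Spc24* were called, and leaving out any 1 replicate left 0 to 2. For 9 members both KO replicates lay above both rescue replicates, as they did for 21.8% of all genes tested. In this clone *Ndc80*, *Nuf2*, *Spc24*, *Nsl1* and *Ska1* had rescue means under 0.1 RPKM and reached the minimum level only through their KO values. With no minimum level 0 members were called, and 0 of the 36276 genes tested were called higher.

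In the exon 4 clone alone no member was called by limma, and neither was any other gene higher in KO (0% of 18751 tested). The lowest adjusted *p* among the members was 0.325, for *Dsn1*. At an unadjusted *p* under 0.05, 7 of the 10 members were higher, against 2.27% of all genes tested. Log2 changes ran from 0.21 for *Ska2* to 1.46 for *Ndc80*, and 9 members had both KO replicates above both rescue replicates, against 11.4% of all genes tested. Where both clones were fitted together and shared their spread, *Dsn1*, *Ndc80*, *Ska3* and *Spc24* were called in this clone.

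The difference between the clones was tested directly as an interaction. None of the 10 members differed in limma (adjusted *p* = 0.997 for each), and 0% of the 16866 genes tested did. At an unadjusted *p* under 0.05 there were 0 members. Of the 16866 genes tested, 434 had a higher and 251 a lower change in the exon 6 clone at that threshold. With so small a share, 0 of 10 members does not show that the clones agree. The change was larger in the exon 6 clone for 9 of the 10 members, by 0.55 on the log2 scale for *Ndc80* and by only 0.02 for *Ska2*, which turned to -0.25 with quantile normalization, and it was smaller for *Ska3*, by a log2 difference of -0.40 (SE 0.21).

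The order of levels per length differed between KO and rescue cells. In KO cells it ran *Mis12*, *Ndc80*, *Dsn1*, *Spc25*, *Spc24*, *Nuf2*, *Ska3*, *Ska2*, *Ska1* and *Nsl1*. *Mis12* lay above *Ndc80*, *Ndc80* above *Dsn1*, and *Spc24* above *Nuf2* in 4 of 4 replicates, and the other neighbours in this order were not separated in every replicate. In rescue cells *Mis12* stood above *Ska2* in 4 of 4 replicates, and no other neighbours in the order of that group were separated in every replicate. *Ska2* was the second-highest member in rescue cells and the eighth in KO cells.

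In the NDC80 complex the highest subunit, *Ndc80* in all 4 KO replicates, was 2.25 to 3.14 times the lowest, *Nuf2*. On the log2(RPKM + 0.5) scale its subunits spanned 0.80 to 0.95 in KO and 0.12 to 0.88 in rescue replicates. In the SKA complex the highest subunit was 1.37 to 5.43 times the lowest in KO replicates. In the MIS12 complex *Mis12* was 4.35 to 7.40 times *Nsl1* in KO replicates and 25.1 to 73.1 times in rescue replicates. On the log2(RPKM + 0.5) scale, where values as low as those of *Nsl1* count for less, the difference between *Nsl1* and *Mis12* moved by 0.25 (exact permutation *p* = 0.0571, adjusted *p* = 0.0762, 3 of 4 KO replicates above all rescue replicates). Within each replicate the difference between *Dsn1* and *Mis12* moved by 0.77 on the log2 scale from rescue to KO (exact permutation test over 4 and 4 replicates, two-sided, *p* = 0.0286, adjusted *p* = 0.0571 over 8 gene pairs), with 4 of 4 KO replicates above all rescue replicates. For *Ska3* and *Ska2* it moved by 0.62 (exact *p* = 0.0286, adjusted *p* = 0.0571), and for *Ska1* and *Ska2* by 0.60 (exact *p* = 0.0857, adjusted *p* = 0.098). The smallest *p* this test can give is 0.0286, the 8 pairs were chosen after the values were seen, and no pair passed 0.05 after adjustment. The test permuted replicates freely over both clones and took no account of clone, and permuting within clones would leave fewer arrangements.

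Several members start beside another gene on the opposite strand, so that both starts share a short stretch of DNA. Such a divergent neighbour within 1000 bases was found for *Ndc80*, *Mis12*, *Nsl1*, *Ska2* and *Ska3*. *Prr11*, a gene with a role in cell cycle progression whose start lies 526 bases from that of *Ska2*, was at 0.948 ± 0.322 RPKM in KO and 0.162 ± 0.0779 RPKM in rescue replicates (SD, n = 4 each) and rose by a log2 change of 1.11 (SE 0.16, adjusted *p* = 0.00749). Its KO replicates all lay above its rescue replicates, while those of *Ska2* overlapped. Within each replicate the difference between *Prr11* and *Ska2* moved by 0.89 (exact permutation *p* = 0.0286, adjusted *p* = 0.0571 over the 8 pairs, 4 of 4 KO replicates above all rescue replicates).

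In the other pairs the neighbour was not called. *Mrpl57*, a mitochondrial ribosomal protein gene 49 bases from *Ska3*, had a log2 change of 0.26 (adjusted *p* = 0.656). *Tatdn3*, 80 bases from *Nsl1*, had 0.01 (adjusted *p* = 0.988), with 0.295 ± 0.0781 RPKM in KO and 0.288 ± 0.0692 RPKM in rescue replicates (SD, n = 4 each). *Derl2*, a gene of protein degradation in the endoplasmic reticulum whose start lies 230 bases from that of *Mis12*, had 0.21 (adjusted *p* = 0.690). The pseudogene *Mettl4-ps1*, 39 bases from *Ndc80*, was under the level tested, with at most 0.0746 RPKM. The differences of *Nsl1* against *Tatdn3* (0.72, exact permutation *p* = 0.0286, adjusted *p* = 0.0571) and of *Ska3* against *Mrpl57* (0.59, exact *p* = 0.0571, adjusted *p* = 0.0762) were of like size, and that of *Mis12* against *Derl2* was 0.28 (exact *p* = 0.114).

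**Figure D4:**
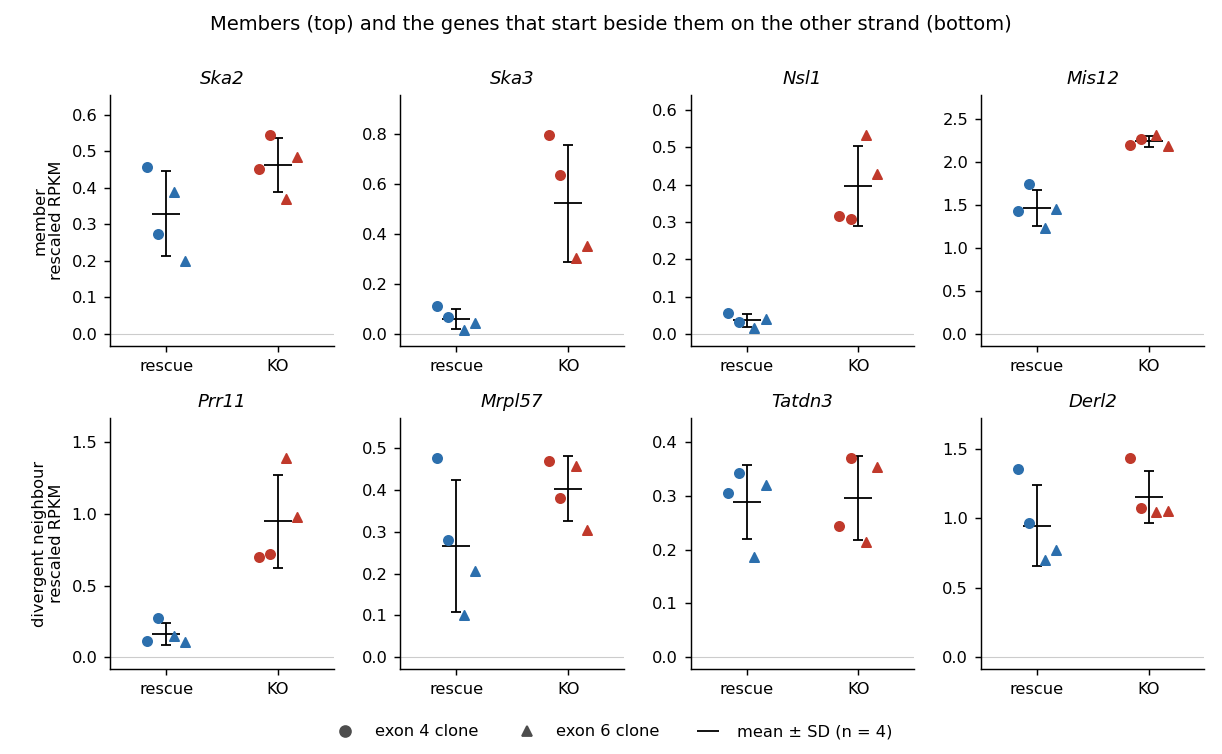
Rescaled RPKM of 4 members (top) and of the gene that starts beside each on the other strand (bottom) in the 4 rescue (blue) and 4 KO (red) replicates, with mean and SD in black and an axis of its own for each gene. In the *Ska2* and *Prr11* pair only *Prr11* shows KO replicates above all rescue replicates, and in the other 3 pairs only the member does.

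The rest of the kinetochore gave the setting for these values. Of 33 other kinetochore genes tested over both clones, 22 rose, none fell and 11 did not pass the test. Among all 16866 genes tested, 1.61% were called higher. The median log2 change was 0.87 for the 33 genes and -0.03 for all genes tested. *Pmf1*, the remaining subunit of the MIS12 complex, was at 0.883 ± 0.0672 RPKM in KO and 0.277 ± 0.0690 RPKM in rescue replicates (SD, n = 4 each) and rose by 0.83 (SE 0.10, adjusted *p* = 0.00291). *Knl1*, a scaffold of the outer kinetochore, rose by 0.97 (SE 0.12, adjusted *p* = 0.00368), with 0.720 ± 0.222 RPKM in KO and 0.116 ± 0.0462 RPKM in rescue replicates (SD, n = 4 each). *Zwint*, the binding partner of Knl1, was at 2.91 ± 0.196 and 2.42 ± 0.198 RPKM (SD, n = 4 each) and had a log2 change of 0.22 (adjusted *p* = 0.424), so it shared with *Mis12* a high level in rescue cells.

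The largest changes in the list were those of *Bub1b*, a spindle checkpoint kinase-like protein (2.14, SE 0.11, adjusted *p* = 6.97e-05), and *Incenp*, the scaffold of the Aurora B complex (1.88, SE 0.11, adjusted *p* = 9.48e-05). The lowest values, both below 0 and not called, were those of *Cenpx* (-0.24, adjusted *p* = 0.705) and *Cenpc1* (-0.12, adjusted *p* = 0.884), both at the inner kinetochore. By class, 5 of 6 checkpoint genes, 4 of 4 Aurora B complex genes, 4 of 6 genes of the corona, 6 of 12 centromere receptor genes and 1 of 2 microtubule partners rose. These calls are over both clones, where 1.61% of all genes tested were called higher. Under the replicate block *Cenpt*, a centromere receptor, was lost (adjusted *p* = 0.0629) and *Ckap5*, a microtubule partner, was gained (adjusted *p* = 0.0349). In the exon 6 clone alone 15 of the 33 rose, against 1.24% of all genes tested. With the block 14 rose, against 142 of the 15301 genes tested. In the exon 4 clone limma called none of the 33, nor any other gene higher in KO. At an unadjusted *p* under 0.05, 22 of the 33 were higher there, against 2.27% of all genes tested.

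**Figure D5:**
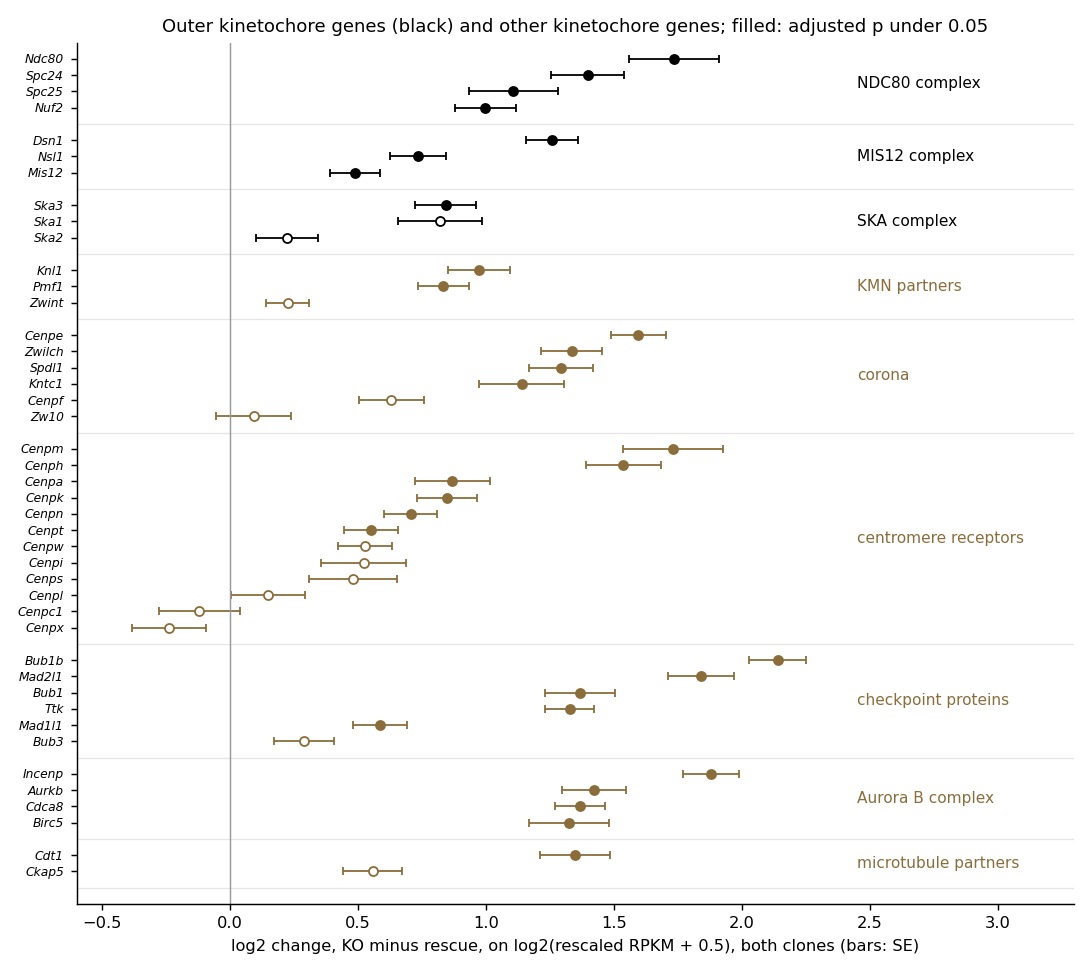
Log2 change over both clones, KO minus rescue, on log2(rescaled RPKM + 0.5) with its SE for the 10 members (black) and the 33 other kinetochore genes (brown), grouped by complex or class, with filled points for an adjusted *p* under 0.05. The members *Ska1* and *Ska2* and 11 of the other genes are open, and *Bub1b* (2.14) lies farthest to the right.

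Outside the 10 members, the genes whose profile over the 8 replicates lay closest to the mean profile of the NDC80 genes were *Spdl1*, *Zwilch*, *Racgap1*, *Bub1* and *Lig1*. The measure was the root mean square difference of centred log2 values, which was 0.0765 for *Spdl1* and 0.137 for *Lig1*, against a median of 0.714 over 10434 genes. *Spdl1* and *Zwilch* belong to the kinetochore corona, *Bub1* is a checkpoint kinase, *Racgap1* acts in cytokinesis and *Lig1* is a DNA ligase of replication. *Dsn1*, at 0.123, was the member outside the NDC80 complex closest to it, and *Ska2*, at 0.590, the farthest. The NDC80 genes themselves lay at 0.182 (*Spc24*) to 0.243 (*Ndc80*) from their own mean profile, farther than *Dsn1* and the genes named above. A small difference thus marks a change near the NDC80 average, not a likeness to any single NDC80 gene.

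Proliferation markers moved with the members. *Top2a*, a topoisomerase needed to separate chromosomes, rose by 2.01 (SE 0.16, adjusted *p* = 0.000352) and *Mki67*, a protein of cycling cells, by 1.13 (SE 0.17, adjusted *p* = 0.00956). *Pcna*, a replication factor, had a log2 change of 0.44 (adjusted *p* = 0.176). The 3 markers summed to 6.93 to 9.13 RPKM in KO and 1.16 to 2.94 RPKM in rescue libraries. The part of cycling cells in the rise of the kinetochore genes was not tested.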

How the data were processed

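The authors clipped adapters with cutadapt, mapped paired reads of ribosomal RNA-depleted total RNA to mm10 with segemehl, counted them per gene with rnacounter against GENCODE and deposited RPKM values. The submitters' processing notes also name Picard 1.89. Whole reads could not be recovered from the deposited RPKM (23.3% to 30.5% of low values came out whole within 0.02 reads), so no count test was run and depth is an estimate. Gene symbols came from GENCODE M21, in which 44585 of 45232 entries matched.

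Libraries were rescaled by the median ratio over genes with at least 1 RPKM, and technical replicates averaged. Testing was limited to mean levels of 0.1 RPKM or more, on log2(RPKM + 0.5) with limma 3.58.1 (R 4.3.3, eBayes with a trend) and clone as a covariate. A gene with an adjusted *p* under 0.05 (Benjamini-Hochberg) was called. Each clone was also fitted alone. The procedure was also run on simulated data, in which the changed genes all had a mean of at least 1 RPKM. Of the members only *Mis12* reached that level, so the run does not bear on calls of the others. The labels number the samples and do not say that same-numbered KO and rescue samples were paired. Deviations of same-numbered samples correlated at 0.477 (exon 4 clone) and 0.36 (exon 6 clone) over 7550 genes, so a replicate block was fitted too. What these correlations come from was not tested. Differences between gene pairs were tested by exact permutation. Promoter sequences are from RefSeq (GRCm38.p6).

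The members, gene lists and tests were chosen with earlier results of these data known. The text names *Lin37*, all members, of the other kinetochore genes the 2 largest and 2 smallest changes and *Pmf1*, *Knl1* and *Zwint*, the divergent neighbours, and the 5 genes outside the members with at least 0.5 RPKM most like the NDC80 genes. The marker genes, *Gm11491*, *Ska2l-ps* and *2700099C18Rik* were named in addition. Alternatives were other pseudocounts, minimums, normalizations and treatments of library 3, no trend, no clone covariate, the block and leaving out each replicate.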

Additional observations from a re-analysis of the deposited data

How the results depend on the processing

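Over both clones the log2 change of each member was above 0 under every alternative run. The count of called members was 7 to 9 in place of 8 under the alternatives other than the minimum level and leaving out replicates. With no minimum level it was 4 (*Dsn1*, *Ndc80*, *Nuf2* and *Spc24*), and with a minimum of 1 RPKM only *Mis12* was tested and 0 were called. Leaving out 1 replicate at a time gave 5 to 8. Without any single replicate of the exon 6 clone it was 5, and *Dsn1*, *Ndc80*, *Nuf2*, *Ska3* and *Spc24* were then called.

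In the exon 6 clone, where 7 were called, the count was 0 with no minimum, 0 with a minimum of 1 RPKM, 2 with library 3 left out (*Ndc80* and *Spc24*), and 0 to 2 when 1 of the 4 replicates was left out. The lone sample of the reduced group is then assumed to vary like the other group. With the RPKM as deposited it was 10, but 10040 of the 16361 genes tested were then called higher. In the exon 4 clone, where none was called, both clones in 1 fit gave 4. The cause of these shifts was not tested. With the replicate block, pairing KO and rescue samples by number, the counts were 7 over both clones, 5 in the exon 6 clone, 0 in the exon 4 clone and 0 for the difference between clones, and no other member call changed than those of *Mis12*, *Nsl1* and *Ska1* given above.

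The difference between the clones turned in sign for *Spc25* without rescue replicate 2 of the exon 4 clone (-0.16, within a range of -0.16 to 0.64 when 1 replicate was left out) and for *Ska2* with quantile normalization (-0.25) and in 4 of the fits with 1 replicate left out (-0.05, -0.14, -0.07 and -0.16, within a range of -0.16 to 0.19), and none of these passed the test. No test used counts, so no counting error is given. Rescue values of the members rest on a median of 11.3 estimated reads, with the most for *Mis12*.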
